A study of Homo sapiens with 16 samples.

Results

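Cytosolic aminoacyl-tRNA synthetases and the genes of the amino acid stress response were followed in 16 RNA-seq libraries of a human T cell line. The set was taken by gene symbol from the GENCODE 29 annotation and holds 38 of the 58295 genes in the files: 20 cytosolic synthetases and 18 stress genes, namely ATF4, other factors of the same response and their known targets. All but 1 of them, 37 genes, passed the filter on low counts. The exception was ALDH1L2, a mitochondrial one-carbon enzyme, which had 1 to 15 counts per library and was not tested.

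The cells were JSL1, a line derived from Jurkat, an established human leukemic T cell line. The study asked what follows when a JSL1 line can or cannot include exon 9 of HDAC7, which codes for a class IIa histone deacetylase. Wild-type cells (WT), cells labelled as an HDAC7 E9 knock-out (dE9) and cells labelled as an E9 knock-in (iE9) were each kept for 48 hours in growth medium or with 20 ng/mL of the phorbol ester PMA, which activates protein kinase C and stands in for part of T cell receptor signalling. There were 2 WT, 3 dE9 and 3 iE9 libraries for each treatment, so that all 6 groups share the JSL1 background and differ in HDAC7 genotype and PMA. The labels do not say whether either edited line is 1 clone, nor whether replicates were separate cultures. The p-values therefore reflect only how these libraries vary, which could be technical variation. The series' design text places the unstimulated cells at 0 hr, whereas every sample label gives 48 hours.

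Libraries held 14536537 to 21888896 estimated counts. TPM is a level per transcript length and library size. Among HDAC7 transcripts that hold or skip exon 9, those with it made up 43.1 to 53.8% of TPM in the 4 WT libraries. Their share was 0 to 7.37% in dE9, 51.8 to 74.9% in unstimulated iE9 and 42.3 to 63% in PMA-treated iE9, so the ranges of PMA-treated iE9 and WT libraries overlapped. Total HDAC7 without PMA was 60.97 to 103.3 TPM in iE9, 20.55 to 24.86 in WT and 21.22 to 26.84 in dE9. With PMA it was 164.8 to 210.5 in iE9, 107.2 to 115.9 in WT and 63.25 to 131.6 in dE9. Contrasts with iE9 thus hold a higher HDAC7 level as well as any difference in exon 9 share. These cannot be told apart here. The summed level of 7 T cell markers ran from 1763 to 4953 TPM, with CD3D at 895 to 2324, TRAC at 4.62 to 1149 and CD2 at 0.0539 to 27.8. Among markers of other cell types, the summed level of 5 B cell genes was 8.94 to 187.8 TPM without PMA and 14.8 to 539 TPM with it, of which CD79A had 8.31 to 538 over all libraries, while the B cell factor PAX5 stayed at or under 0.138 TPM. The highest B cell sums were in PMA-treated iE9. Summed markers were at or under 25.8 TPM for myeloid, 61.6 for natural killer, 87.0 for erythroid, 2.89 for epithelial and 75.5 for fibroblast or endothelial cells, and no marker of these lists was at 0 in every library. The mitochondrial share of counts was 3 to 6.39% in 14 libraries, but 9.17% and 12.8% in the iE9 libraries numbered 1, without and with PMA. These 2 libraries were also the lowest of their group for 30 and 31 of the 38 genes, and PMA-treated dE9 library 1 was the highest of its group for 23. The same ranks over all genes were not counted. The part of these features in the results was not tested. As these are bulk samples, fewer cells that express a gene and less of its RNA per cell cannot be told apart.

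Aminoacyl-tRNA synthetases charge each tRNA with its amino acid and so feed the ribosome. When uncharged tRNA, unfolded protein or other stress activates a kinase of translation factor eIF2, general translation drops while the mRNA of the transcription factor ATF4 is translated better. ATF4 then pairs with C/EBP and related factors at composite DNA elements and drives genes for amino acid synthesis and transport, tRNA charging and stress control. In T cells the same enzymes of serine, one-carbon and asparagine metabolism support growth after activation.

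The composite element to which ATF4 and C/EBP factors bind was searched as TGATGNAA on both strands, because it is the sequence feature for which these genes are known. Promoter windows of 250 bases before to 50 bases after each RefSeq start (GRCh38.p14) were matched for 31 of the 38 genes. No window was matched for DARS, LARS, VARS, YARS, PSPH, SHMT2 and ALDH1L2. At least 1 match lay in the windows of 11 of the 31 genes (35.5%), against 4.46% of the 27305 genes with a window. By window, it was in 11 of 46 (23.9%) against 3.62% of 35116. Because the set was chosen around ATF4 and its known targets, these higher shares are no independent evidence about it. Of the 11 genes, 7 code for synthetases. These 30-base stretches show each match, 5′ to 3′ on the gene's strand as RefSeq gives it, with the match or its reverse complement in capitals.
AARS: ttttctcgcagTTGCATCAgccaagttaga
CARS: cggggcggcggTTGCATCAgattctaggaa
GARS: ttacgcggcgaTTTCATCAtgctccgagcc
IARS: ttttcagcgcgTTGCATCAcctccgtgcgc
MARS: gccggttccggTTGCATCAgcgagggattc
NARS: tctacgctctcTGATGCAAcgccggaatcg
TARS: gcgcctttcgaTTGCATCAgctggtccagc
ATF3: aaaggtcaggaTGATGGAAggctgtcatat
CHAC1: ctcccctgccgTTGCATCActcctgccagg
ASNS: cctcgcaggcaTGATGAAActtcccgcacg
CEBPG: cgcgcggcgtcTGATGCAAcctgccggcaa

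The ASNS stretch is at chr7:97872458-97872487 on the minus strand, and its match begins 68 bases before the RefSeq start. In CARS (chr11:3057407-3057436, minus), IARS (chr9:92293692-92293721, minus) and MARS (chr12:57488053-57488082, plus) the match begins 2, 13 and 4 bases before the start. In NARS (chr18:57621804-57621833, minus) and TARS (chr5:33440956-33440985, plus) it begins at the transcribed bases 15 and 3. The palindrome CACGTG, an E-box to which MYC and related factors can bind, was in the windows of IARS and ATF4, 2 of 31 genes (6.45%) against 8.77% of all. Neither motif holds the other. A match is a run of letters and was not measured as a binding site here.

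With PMA, more of these genes fell than rose in every line. In WT, 20 of the 37 tested genes fell and 1 rose at an adjusted p under 0.05 (edgeR), while 22.3% of all 18073 genes tested changed, 11.3% lower and 11.1% higher. In dE9, 19 fell and 4 rose, against 33.5% of all genes changed, 16.5% lower and 17.1% higher. In iE9, 18 fell and 3 rose, against 27.1% of all, 14.4% lower and 12.6% higher. The median log2 fold change of the 37 genes was -0.80, -0.60 and -0.71 in WT, dE9 and iE9, beside 0.03, 0.06 and -0.01 over all genes tested. The set was chosen with earlier results of these data known, and the genes it is set beside were not matched to it in level. These counts are thus a description and no independent test. The 3 PMA comparisons share no library. Across them 15 genes fell in all 3 lines, PPP1R15A rose in all 3, 11 passed in none, and 10 passed in 1 or 2 lines. No gene was called in opposite directions. How many of all genes tested show each of these patterns was not counted. Same-numbered libraries deviated together in dE9 and iE9. A fit with the replicate number as a block within each line, added after seeing the data, called 36.5, 45.2 and 39.8% of all genes. In it, 9 of the 11 passed in at least 1 line, leaving CARS and QARS. Of these calls, 11 of 21 in WT, 16 of 23 in dE9 and 17 of 21 in iE9 were made in every fit that left out 1 library. The WT count was 12 without PMA-treated WT library 1, 13 without PMA-treated WT library 2, and 14 and 16 without the unstimulated libraries 1 and 2. Fitted on the WT libraries alone it was 33, beside 52.7% of all genes tested in that fit, against 22.3% in the main fit. A fit without 1 WT library leaves 1 library in that group, which then adds nothing to the estimate of spread. The filter kept 19476 to 19545 genes in these fits, against 18073 in the main fit. The share of all genes called was lower in them than in the main fit too.

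**Figure D1:**
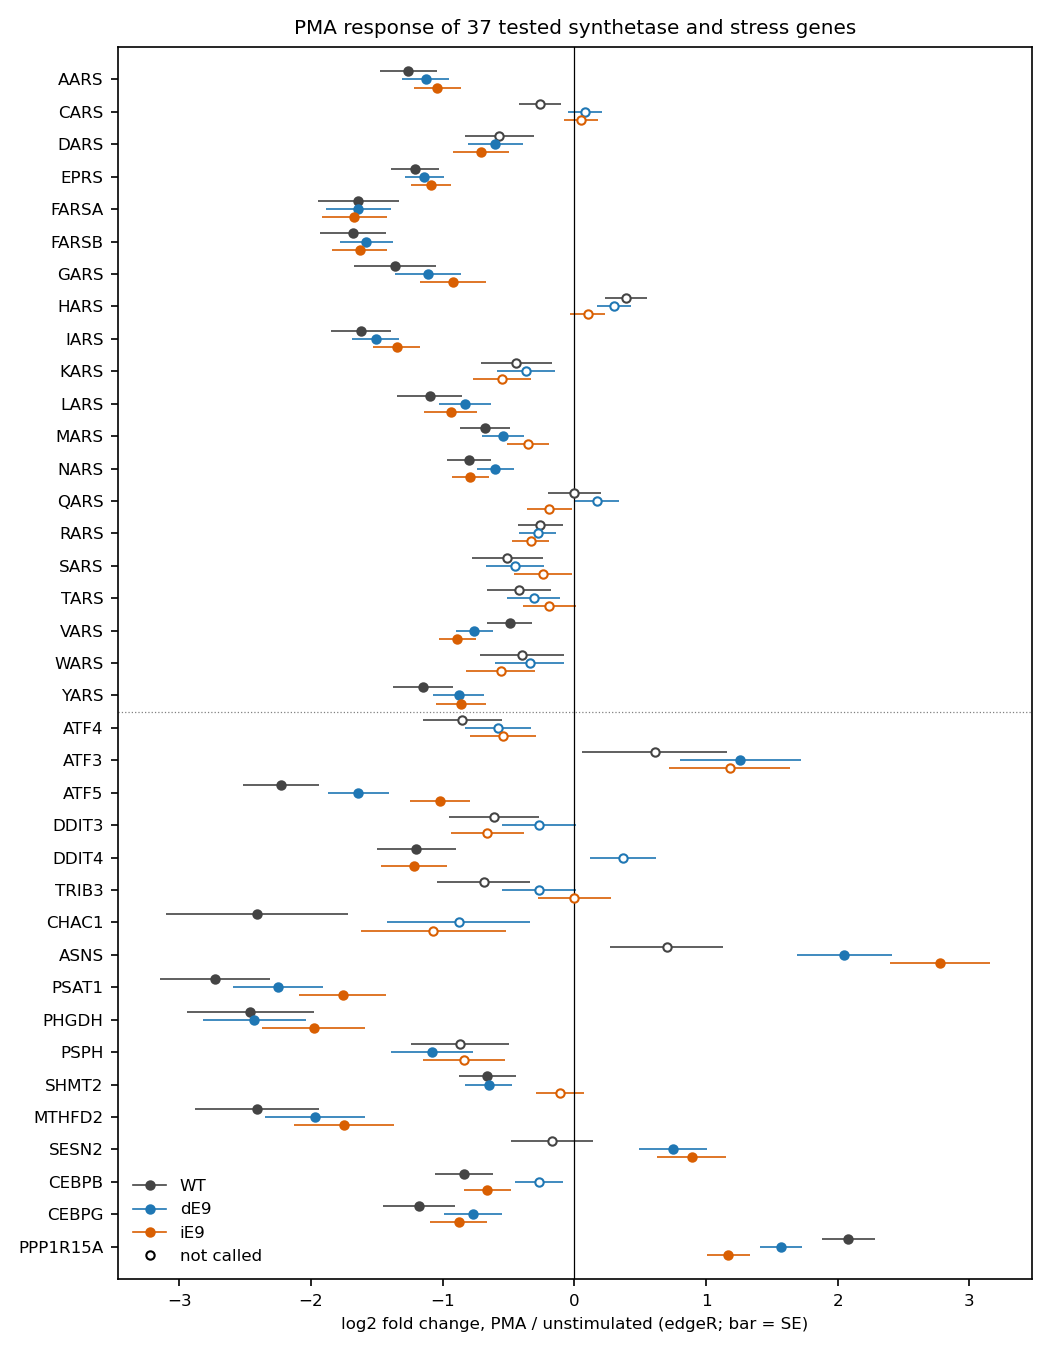
Log2 fold change of PMA against unstimulated cells (x axis, bars are SE from edgeR) for the 37 tested genes (rows) in WT, dE9 and iE9. Filled points passed an adjusted p of 0.05, and the dotted line parts the 20 synthetases (top) from the 17 stress genes. Most points lie left of 0 in each line, and PPP1R15A is filled and right of 0 in all 3.

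Synthetase mRNA fell for some amino acids and did not pass for others. Of the 20 synthetases, 11 fell in WT, 12 in dE9 and 11 in iE9 by edgeR, and none rose. By DESeq2, HARS rose in WT (0.0385) and dE9 (0.0489). AARS, EPRS, FARSA, FARSB, GARS, IARS, LARS, NARS, VARS and YARS, which charge alanine, glutamate with proline, phenylalanine (both subunits), glycine, isoleucine, leucine, asparagine, valine and tyrosine, fell in all 3 lines. CARS, HARS, KARS, QARS, RARS, SARS, TARS and WARS, for cysteine, histidine, lysine, glutamine, arginine, serine, threonine and tryptophan, passed in none with edgeR's unblocked fit, though HARS, KARS, RARS, SARS, TARS and WARS did in at least 1 line with the block within each line. DARS (aspartate) fell in dE9 and iE9, and MARS (methionine) in WT and dE9. In WT the calls of MARS and VARS were lost without any 1 of the 4 libraries (edgeR adjusted p = 0.068 to 0.223 and 0.165 to 0.267), that of GARS without either PMA-treated library (up to 0.0688), and those of LARS (0.0792) and NARS (0.0535) without PMA-treated library 1. In dE9, DARS passed only without PMA-treated library 2 (0.022 to 0.152 over 6 fits), and MARS did not pass without unstimulated library 1 or 3 or PMA-treated library 2 (up to 0.0984). In iE9, DARS did not pass without unstimulated library 2 or 3 or PMA-treated library 1 (up to 0.0999), nor GARS without unstimulated library 2 (0.0693). Summed over the 20 genes, the level per length went from 3039 ± 137 to 2037 ± 148 TPM in WT (SD, n = 2), from 2889 ± 235 to 1952 ± 78.2 in dE9 and from 2519 ± 173 to 1899 ± 239 in iE9 (n = 3).

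FARSA, the catalytic subunit of phenylalanyl-tRNA synthetase (chr19:12922479-12934037, minus strand, GRCh38), was the synthetase of highest level in unstimulated WT, at 342 ± 19.6 TPM. Its level in CPM, counts scaled to library size, was 429.6 and 471 in unstimulated WT and 149 and 139 with PMA. In dE9 it was 555, 387 and 548 without PMA and 212, 137 and 130.3 with it, and in iE9 228, 394 and 345 and 74.5, 116 and 114. In each line every PMA-treated library was below every unstimulated one. The log2 fold change was -1.64 ± 0.31 in WT (SE; adjusted p = 0.00213), -1.64 ± 0.25 in dE9 (0.000247) and -1.67 ± 0.25 in iE9 (0.000302), all by edgeR. Its partner FARSB, the other subunit of the same enzyme, fell by near the same amount: -1.68 ± 0.25, -1.58 ± 0.20 and -1.63 ± 0.21 (edgeR adjusted p = 0.000492, 6.64e-05 and 7.32e-05). IARS read 492 and 488 CPM in unstimulated WT and 144 and 174 with PMA. In dE9 it read 452, 377 and 441 against 121, 156 and 169, and in iE9 313, 416 and 352 against 112, 156 and 155. No groups overlapped, and IARS fell 3.08-fold in WT, 2.85-fold in dE9 and 2.55-fold in iE9 (edgeR adjusted p = 0.000301, 4.12e-05 and 0.000124).

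AARS fell 2.4-, 2.19- and 2.06-fold in WT, dE9 and iE9, and EPRS 2.31-, 2.21- and 2.13-fold. VARS fell 1.41-, 1.69- and 1.85-fold. At the other end, QARS had log2 fold changes of 0.00 ± 0.20, 0.17 ± 0.17 and -0.19 ± 0.17, and CARS of -0.26 ± 0.16, 0.08 ± 0.13 and 0.05 ± 0.13. HARS had positive values in all 3 lines (0.39 ± 0.16, 0.30 ± 0.13 and 0.10 ± 0.13; edgeR adjusted p = 0.0964, 0.105 and 0.616). HARS2, the mitochondrial enzyme encoded head to head with it on the other strand, did rise, from 36.8 ± 0.863 to 68.4 ± 0.955 CPM in WT (SD, n = 2; 1.86-fold), 1.55-fold in dE9 and 1.51-fold in iE9 (edgeR adjusted p = 0.00154, 0.00188 and 0.00366). The strandedness of the libraries is not given in the sources used here, so reads of these overlapping genes may not be fully separated.

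WARS, the tryptophanyl enzyme, which interferon induces in many cells, read 94.7 and 93.4 CPM in unstimulated WT and 67.7 and 74.4 with PMA. In dE9 the values were 116, 90.4 and 96.7 against 111, 63.1 and 64.9, and in iE9 53.4, 88.2 and 77.7 against 31.8, 56.7 and 60.3. The groups were apart in WT and overlapped in both edited lines, where dE9 library 1 was the highest of its PMA-treated group and both iE9 libraries 1 were the lowest of theirs. The log2 fold changes of WARS (-0.40 ± 0.32, -0.34 ± 0.26 and -0.56 ± 0.26) did not pass (edgeR adjusted p = 0.399, 0.344 and 0.132). With the block within each line, WARS passed in dE9 (0.032) and iE9 (0.00534). KARS passed with it too (0.0094 in dE9, 0.0014 in iE9), as did HARS (0.048), SARS (0.0138) and TARS (0.0407) in dE9 and MARS (0.0109) and RARS (0.0394) in iE9. Of these HARS was higher with PMA, and the others were lower. Without 1 library, KARS (0.0161) and RARS (0.0472) passed in iE9 without unstimulated library 1, SARS in dE9 without unstimulated library 2 (0.0346) and HARS in dE9 without PMA-treated library 2 (0.0485).

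ATF4 itself, the central factor of this response (chr22:39519695-39522685, plus strand), had the highest level per length of the 38 genes in unstimulated WT, at 654 ± 17.2 TPM. It read 657 and 669 CPM there and 377 and 359 with PMA. In dE9 it read 653, 428 and 577 without PMA and 472, 307 and 331 with it, and in iE9 343, 607 and 583 and 263, 393 and 396. The groups were apart in WT only. In dE9, PMA-treated library 1 was above unstimulated library 2, and in iE9 both libraries 1 were the lowest of their groups. The log2 fold changes, -0.85 ± 0.30, -0.58 ± 0.25 and -0.54 ± 0.25, missed the threshold (edgeR adjusted p = 0.057, 0.0848 and 0.117). In WT, ATF4 passed by DESeq2 (0.0385), with no filter on low counts (0.0258) and on the WT libraries alone (5.65e-05). ATF4 fell in dE9 (0.000995) and iE9 (0.00218) once the replicate number was a block within the line, while a block shared by all lines left it short (0.106 and 0.138). Without unstimulated iE9 library 1 it passed in iE9 (0.0246), and without PMA-treated dE9 library 1 in dE9 (0.0275). ATF4 is known to be controlled by translation, which mRNA levels do not show.

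ATF5, a related factor also translated under eIF2 phosphorylation (chr19:49928702-49933935, plus strand), fell in every line. Its CPM was 183 and 169 in unstimulated WT and 39.5 and 35.4 with PMA, 89.3, 89.5 and 137 and 45.5, 28.7 and 27.2 in dE9, and 51, 69.7 and 45.5 and 23.4, 29.5 and 28.8 in iE9. The groups did not overlap within any line, and the unstimulated levels themselves were highest in WT and lowest in iE9. The log2 fold changes were -2.23 ± 0.29, -1.64 ± 0.23 and -1.02 ± 0.23 (edgeR adjusted p = 0.0002, 0.00014 and 0.00469). ATF5 overlaps NUP62 on the other strand, which had a mean of 92.13 TPM over all libraries beside 53.05 for ATF5. As the strandedness is not given, reads of these genes may not be fully separated.

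CEBPG, which pairs with ATF4, fell 2.27-fold in WT, 1.71-fold in dE9 and 1.84-fold in iE9 (edgeR adjusted p = 0.00685, 0.0138 and 0.00856). CEBPB, a C/EBP factor of inflammation and stress, fell in WT (-0.84 ± 0.22, 0.0155) and iE9 (-0.66 ± 0.18, 0.015), with -0.27 ± 0.18 in dE9 (0.267). The WT call of CEBPB was lost without any 1 WT library (0.0791 to 0.124), and the iE9 call without unstimulated library 2 or 3 or PMA-treated library 1 (up to 0.0713). CEBPG did not pass in WT without unstimulated library 1 or PMA-treated library 2 (up to 0.0754), or in dE9 without PMA-treated library 2 or 3 (up to 0.0674). ATF3, an immediate stress factor at low level, read 5.3, 2.52 and 4.97 CPM in unstimulated dE9 and 13.5, 9.54 and 7.63 with PMA, and rose (1.26 ± 0.46, edgeR adjusted p = 0.0476). That call was lost in 5 of 6 fits that left out 1 library, all but the one without PMA-treated dE9 library 3 (0.0455 to 0.162 over the 6). In WT (0.61 ± 0.55, 0.462) and iE9 (1.18 ± 0.46, 0.0728) ATF3 did not pass, although in iE9 it did with the block within the line (0.00533), by DESeq2 (0.033), with no filter (0.00697), and without unstimulated library 3 (0.0252) or PMA-treated library 1 (0.0456), and in WT on the WT libraries alone (0.0408).

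Within each line, PHGDH and PSAT1, enzymes that make serine, had the lowest log2 fold changes of the 37 genes. PHGDH, the first enzyme of serine synthesis (chr1:119648411-119744226, plus strand), read 381 and 381 CPM in unstimulated WT and 67.8 and 70.6 with PMA. In dE9 it read 332, 274 and 309.5 against 102, 41.2 and 26.4, and in iE9 149, 260.4 and 235 against 38.2, 71.3 and 54. PHGDH groups were apart in each line, with falls of 5.5-, 5.38- and 3.94-fold in WT, dE9 and iE9 (edgeR adjusted p = 0.00264, 0.000344 and 0.00185). PSAT1, the next enzyme (chr9:78297143-78330093, plus strand), read 304 and 343 CPM in unstimulated WT and 51.2 and 46.2 with PMA. In dE9 it went from 295, 148 and 199 to 67.8, 34.1 and 32.4, and in iE9 from 127, 217 and 204 to 35.3, 65.1 and 61.1. PSAT1 groups were apart too, and PSAT1 fell 6.64-, 4.77- and 3.39-fold (edgeR adjusted p = 0.000596, 0.000196 and 0.00148).

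MTHFD2, the mitochondrial folate enzyme used by dividing cells, read 314 and 318 CPM in unstimulated WT and 62.9 and 55.9 with PMA. It read 290.5, 175 and 208 and 90.2, 54.9 and 26.8 in dE9 and 121, 222 and 202 and 32.7, 62.7 and 66.3 in iE9. Again no PMA-treated library reached an unstimulated one of its line. MTHFD2 fell 5.32-, 3.91- and 3.37-fold (edgeR adjusted p = 0.00272, 0.00125 and 0.00347). SHMT2, which passes the carbon of serine to folate in mitochondria, fell 1.58-fold in WT (0.0437, lost without any 1 WT library at 0.129 to 0.235) and 1.57-fold in dE9 (0.0127), with -0.11 ± 0.18 in iE9 (0.705). The dE9 call of SHMT2 was lost without unstimulated library 3 or PMA-treated library 2 (up to 0.0604). PSPH, the last enzyme of serine synthesis, fell in dE9 (-1.08 ± 0.31, 0.0141), but not without unstimulated library 1 or PMA-treated library 2 (up to 0.0541). Its values were -0.87 ± 0.37 in WT (0.109) and -0.84 ± 0.31 in iE9 (0.055), where it fell with either replicate block (0.0488 with the shared block and 0.00124 within the line), by DESeq2 (0.0438), with no filter (0.00877), and without unstimulated library 1 (0.0199) or PMA-treated library 2 (0.0372). In WT, PSPH passed with no filter (0.0426) and on the WT libraries alone (0.0017). PSPH has a near-identical pseudogene, PSPHP1, listed at a mean of 2.37 TPM, so its reads are uncertain.

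ASNS, which makes asparagine and is a textbook ATF4 target (chr7:97852118-97872542, minus strand), went the other way. It read 47.5 and 42.1 CPM in unstimulated WT and 70.2 and 75.6 with PMA. In dE9 it read 23.1, 7.53 and 16.1 without PMA and 45.9, 72.7 and 74.1 with it. In iE9 it read 8.85, 11.6 and 4.25 without PMA and 53.6, 57.5 and 59.6 with it. Every PMA-treated library was above every unstimulated one of its line, and unstimulated WT libraries were above all unstimulated libraries of the edited lines. ASNS rose 4.13-fold in dE9 and 6.87-fold in iE9 (2.05 ± 0.36 and 2.78 ± 0.38 on the log2 scale, edgeR adjusted p = 0.000672 and 0.000124), calls kept in every fit that left out 1 library. In WT the value was 0.70 ± 0.43 (edgeR adjusted p = 0.255), which did not pass with the spread estimated over all 6 groups. On the WT libraries alone ASNS did pass (0.000428). Whether the response differed between lines is given with the differences between responses.

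**Figure D2:**
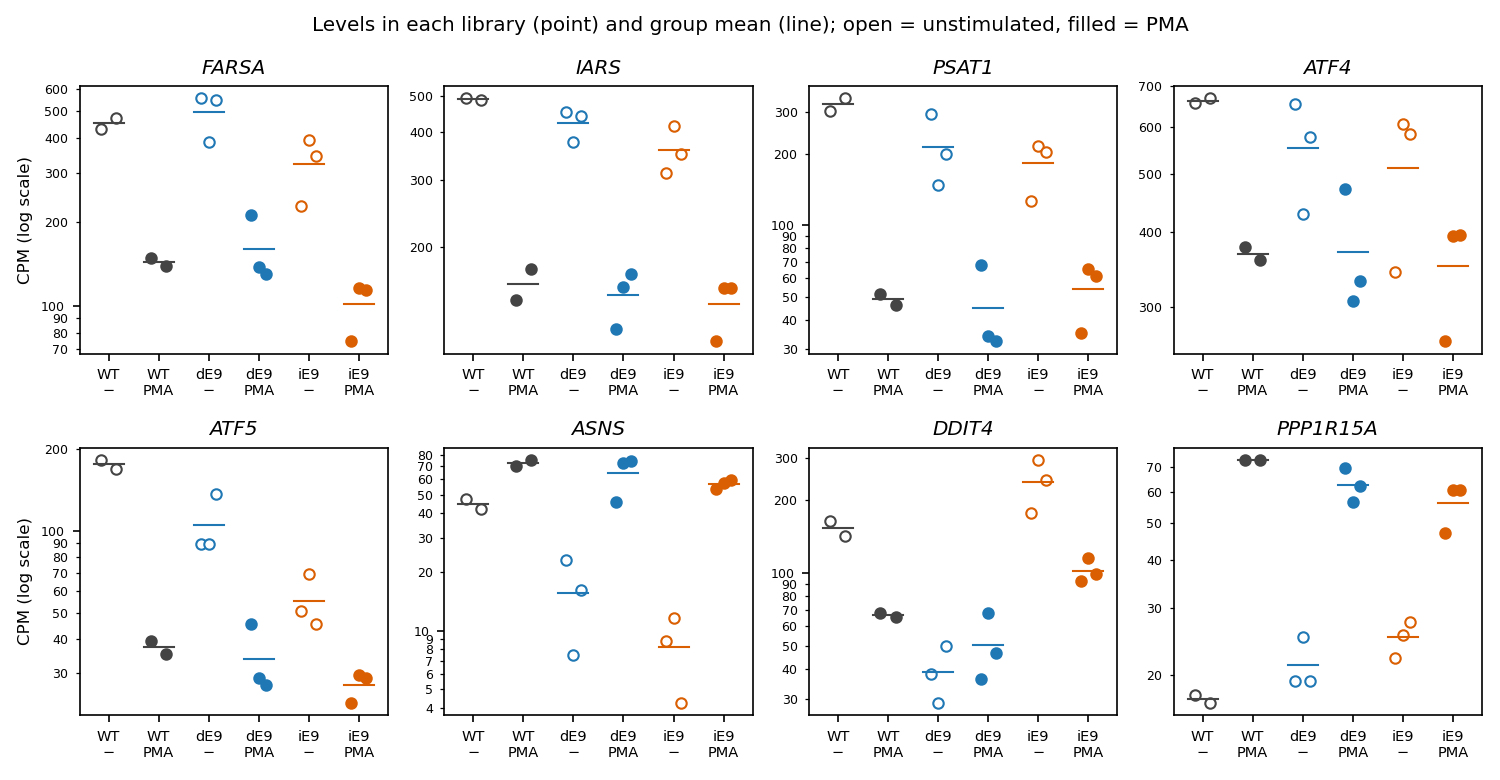
CPM (y axis, log scale) of 8 genes in each of the 16 libraries (points; open, unstimulated; filled, PMA), with the group mean as a line, by line and treatment (x axis). FARSA, IARS, PSAT1 and ATF5 are lower with PMA in each line, ASNS and PPP1R15A are higher, and DDIT4 without PMA is lowest in dE9.

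Among regulators of translation and growth, PPP1R15A (GADD34), the phosphatase subunit that reverses eIF2 phosphorylation (chr19:48872392-48876057, plus strand), had the lowest adjusted p of the set in WT and dE9. It read 17.7 and 16.9 CPM in unstimulated WT and 73 and 73.1 with PMA. In dE9 it read 19.2, 25.1 and 19.3 and 69.4, 56.8 and 62.4, and in iE9 22.1, 25.5 and 27.5 and 46.9, 61 and 60.9. PMA-treated libraries stood above the unstimulated ones everywhere, and PPP1R15A rose 4.22-, 2.96- and 2.25-fold (edgeR adjusted p = 2.26e-05, 1.34e-05 and 0.000145). SESN2, a leucine sensor that restrains mTORC1, rose 1.68-fold in dE9 and 1.86-fold in iE9 (0.035 and 0.0186) and had -0.17 ± 0.31 in WT (0.745). In dE9 the call of SESN2 was kept only without unstimulated or PMA-treated library 1 (0.0106 to 0.144 over 6 fits), and the groups overlapped. In iE9 it was kept only without unstimulated library 2 or PMA-treated library 1 (0.0115 to 0.0687).

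DDIT4 (REDD1), which also restrains mTORC1 (chr10:72273920-72276036, plus strand), read 165 and 142 CPM in unstimulated WT and 68.1 and 65.4 with PMA. In dE9 it read 38.2, 29 and 49.9 without PMA and 36.5, 68.1 and 46.7 with it. In iE9 it read 177, 294 and 243 without PMA and 92.2, 116 and 98.6 with it. The WT and iE9 groups were apart, and the dE9 groups overlapped. DDIT4 fell 2.3-fold in WT (0.0115) and 2.33-fold in iE9 (0.00234), with 0.37 ± 0.25 in dE9 (0.268), all by edgeR. The WT call was lost in 3 of 4 fits without 1 library (0.042 to 0.0923), all but the one without unstimulated WT library 2.

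The pro-death factor DDIT3 (CHOP) read 22.4 and 18.2 CPM in unstimulated WT and 13 and 13.6 with PMA. It read 23.1, 12.5 and 12.1 and 19, 9.21 and 11.3 in dE9 and 28.1, 27.6 and 24.8 and 19.1, 16.6 and 15.4 in iE9. The groups were apart in WT and iE9 and overlapped in dE9, and the changes (-0.61 ± 0.34, -0.27 ± 0.28 and -0.66 ± 0.28) did not pass (edgeR adjusted p = 0.22, 0.494 and 0.095). In iE9 DDIT3 fell with either replicate block (0.0417 shared, 0.00399 within the line) and on the iE9 libraries alone (0.0289). DDIT3 overlaps MARS, which has 275 ± 20.4 TPM in unstimulated WT beside 32.2 ± 3.9 for DDIT3, on the other strand, so its counts are uncertain.

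TRIB3, a pseudokinase that ATF4 and CHOP induce, read 57.9 and 57.7 CPM in unstimulated WT and 37.7 and 34.1 with PMA, 46.6, 33.7 and 38.4 and 40.4, 34.1 and 24.1 in dE9, and 20.4, 42.3 and 33.1 and 19.9, 38.6 and 37.5 in iE9. Only the WT groups were apart, and no change passed (-0.69 ± 0.35, -0.27 ± 0.28 and 0.00 ± 0.28; edgeR adjusted p = 0.169, 0.501 and 0.997). CHAC1, which degrades glutathione, was low throughout, at 9.79 and 15.9 CPM in unstimulated WT and 2.46 and 2.36 with PMA. It fell 5.32-fold in WT (0.0216), but not when any 1 WT library was left out (0.0515 to 0.134), and gave -0.88 ± 0.54 in dE9 (0.231) and -1.07 ± 0.55 in iE9 (0.166; 0.0194 with the block within the line).

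The promoter matches shown above were set beside these calls as counts. The share of all genes that fell in all 3 lines was not counted. Of the 11 genes with the composite element, 5 fell in all 3 lines (AARS, CEBPG, GARS, IARS and NARS), and of the 20 matched genes without it, 7 did (ATF5, EPRS, FARSA, FARSB, MTHFD2, PHGDH and PSAT1). Genes with the element include ASNS, which rose in both edited lines, and CARS and TARS, which did not pass in any.

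Lists of related genes were counted in the same fits, beside the shares of all genes given above (11.3, 16.5 and 14.4% lower and 11.1, 17.1 and 12.6% higher in WT, dE9 and iE9). Among 17 mitochondrial synthetases, 5, 8 and 9 fell in WT, dE9 and iE9, and HARS2 rose in each. The median log2 fold changes were -0.58, -0.62 and -0.55. Of 7 scaffold proteins and tRNA partners of the synthetases, 4 fell in each line, among them AIMP2, a scaffold of the multi-synthetase complex (2.67-, 3.14- and 3.28-fold), and XPOT, which exports tRNA from the nucleus (2.95-, 2.7- and 2.51-fold). SEPSECS, which makes selenocysteinyl-tRNA, rose in iE9. The median over these 7 was -0.65, -0.64 and -0.77.

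Upstream of ATF4, 1, 2 and 0 of 6 tested eIF2 kinases and activators fell in WT, dE9 and iE9 and none rose by edgeR, with EIF2AK2 (PKR), the kinase that senses double-stranded RNA, falling in WT (-0.69 ± 0.18, 0.0123) and dE9 (-0.63 ± 0.14, 0.00359). These counts are near the share of all genes that fell and are no result about that list. Of 9 subunits and regulators of eIF2 and its exchange factor eIF2B, 5, 6 and 6 fell. EIF2B3, the gamma subunit of eIF2B, fell 3.75-, 3.32- and 3.41-fold. The median was -0.57, -0.52 and -0.51. Of 17 genes of the ER chaperone and unfolded protein response, 4, 5 and 7 fell and 0, 2 and 1 rose, with medians of -0.23, -0.30 and -0.23. SDF2L1, an ER chaperone partner, fell 2.31-, 2.33- and 3.13-fold.

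Of 16 further ATF4 targets tested, 5, 5 and 4 fell and 2, 3 and 1 rose in WT, dE9 and iE9, and the median turned sign between lines (-0.48, 0.24 and 0.12). SLC7A1, a transporter of cationic amino acids, fell 2.88-, 2.98- and 2.4-fold. RIT1, a RAS-like GTPase, rose 2.82-, 2.85- and 2.13-fold. Among 14 partners in serine, one-carbon and proline synthesis, 8, 9 and 7 fell and 0, 1 and 1 rose, with medians of -1.46, -1.44 and -1.0. MTHFD1, the cytosolic folate enzyme, fell 3.3-, 3.79- and 2.98-fold, and PYCR1, the last enzyme of proline synthesis, fell 4.23-, 3.33- and 4.75-fold.

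Between lines without PMA, few of the 37 genes differed. DDIT4 was the only one that edgeR called between the edited lines, beside 1.72% of all genes tested, 0.957% higher and 0.764% lower. Its levels, given above, did not overlap, and it was higher in iE9 than in dE9 by 2.61 ± 0.26 on the log2 scale (6.1-fold, edgeR adjusted p = 0.000235). The call held in each of the 6 fits without 1 library (0.000334 to 0.00215). DESeq2 also called ATF5, lower in iE9 (log2 -0.93, 0.00781), as did edgeR with no filter on low counts (0.000866), which called ASNS too (-0.91, 0.00389). Against WT the values had opposite signs, with iE9 at 0.63 ± 0.28 (adjusted p = 0.3) and dE9 at -1.98 ± 0.27 (0.0529), neither past the threshold with edgeR. For dE9 against WT, DDIT4 passed by DESeq2 (1.42e-07) and in edgeR with no filter on low counts (3.5e-13).

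Against WT, unstimulated iE9 had lower ASNS and ATF5, 2 of 37 genes beside 1.38% of all, 0.675% higher and 0.703% lower. ASNS was lower by 5.4-fold (log2 -2.43 ± 0.40, edgeR adjusted p = 0.00822) and ATF5 by 3.18-fold (-1.67 ± 0.25, 0.00734). The groups did not overlap for either gene. DESeq2 also called SHMT2, lower in iE9 (-0.73, 0.0216; 0.0932 with edgeR). Neither call held without unstimulated WT library 1 (0.11 for ASNS, 0.0923 for ATF5). Without both iE9 libraries numbered 1, left out after their mitochondrial share was seen, ATF5 passed (0.0318) and ASNS did not (0.052). The median over the 37 genes was -0.39, with 33 of 37 below 0, beside 0.01 and 8743 of 18073 below 0 over all genes. Of the genes around them, ASS1, which makes argininosuccinate on the way to arginine, was 7.74-fold lower and GPT2, a mitochondrial alanine transaminase, 4.37-fold lower (edgeR adjusted p = 0.0143 and 0.0467).

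Unstimulated dE9 gave 0 calls against WT by edgeR, among the 37 and among all genes (0.0%). Here too most of the 37 lay lower than in WT, with a median of -0.26 and 30 of 37 below 0. Over all genes the median was 0.01, with 8684 of 18073 below 0. Both edited lines were compared with the same 2 WT libraries. At an unadjusted p under 0.05, 7 of the 37 passed, but the share of all genes at that threshold was not counted. DESeq2 called 1, DDIT4, beside 0.127% of all genes. ASNS had -1.53 ± 0.39 here and ATF5 -0.74 ± 0.25 (edgeR adjusted p = 0.753 and 1.0), and ASNS passed with no filter on low counts (1.21e-06). ATF4 differed from WT by -0.26 ± 0.27 in dE9 and -0.38 ± 0.27 in iE9, DDIT3 by -0.35 ± 0.31 and 0.40 ± 0.31, TRIB3 by -0.55 ± 0.31 and -0.86 ± 0.31, and WARS by 0.10 ± 0.29 and -0.36 ± 0.29. None of these passed.

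**Figure D3:**
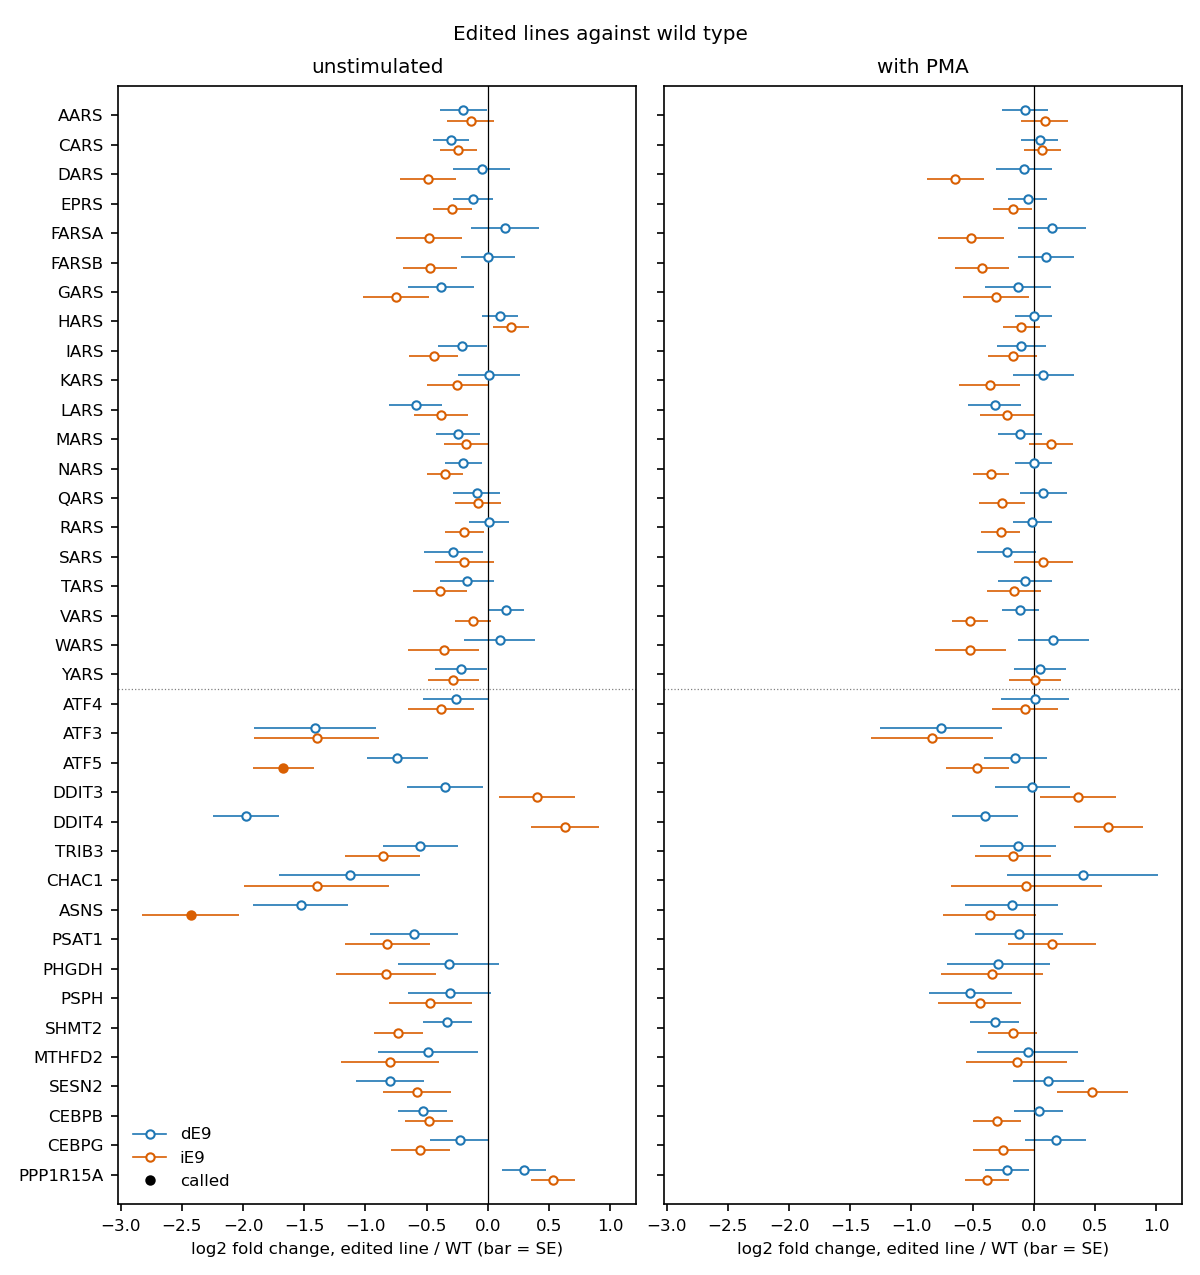
Log2 fold change of dE9 and iE9 against WT (x axis, bars are SE from edgeR) for the 37 tested genes (rows), without PMA (left) and with PMA (right). The 2 filled points, ATF5 and ASNS in unstimulated iE9, passed an adjusted p of 0.05, and with PMA none did.

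With PMA, DDIT4 was higher in iE9 than in dE9 (1.02 ± 0.25, 2.02-fold, edgeR adjusted p = 0.0427), the 1 call of 37 beside 2.61% of all genes (1.1% higher, 1.51% lower), and the groups did not overlap. This call was lost in 5 of 6 fits without 1 library, all but the one without PMA-treated dE9 library 2 (0.0233 to 0.135 over the 6), without both iE9 libraries 1 (0.0511) and when only these 2 groups were fitted (0.153). Of the neighbouring genes, PPP1R15B, the constitutive counterpart of PPP1R15A, was 1.66-fold higher in iE9 than in dE9, while CTH, which makes cysteine, and GPT2 were 2.75- and 4.34-fold lower (edgeR adjusted p = 0.0422, 0.0308 and 0.0333).

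PMA-treated iE9 gave 0 calls of 37 against WT by edgeR, beside 1.12% of all genes, 0.332% higher and 0.791% lower. There, 5 had an unadjusted p under 0.05 (share of all genes not counted), and DESeq2 called VARS beside 3.8% of all genes. PMA-treated dE9 gave 0 calls against WT by edgeR, beside 0.0% of all genes, with 0 at an unadjusted p under 0.05 and 0 by DESeq2. With PMA, ASNS had -0.36 ± 0.38 for iE9 and -0.18 ± 0.38 for dE9 against WT (edgeR adjusted p = 0.698 and 1.0).

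The difference between 2 lines in their PMA response was tested directly. No gene of the 37, and 0.0% of all genes, passed for iE9 minus dE9, iE9 minus WT or dE9 minus WT by edgeR. At an unadjusted p under 0.05 there were 1, 4 and 3 of 37, and the share of all genes at that threshold was not counted. DESeq2 called DDIT4 for iE9 minus dE9, beside 0.706% of all genes, and no other of the 37 in any of these differences. The difference for DDIT4 was -1.59 ± 0.35 on the log2 scale (edgeR adjusted p = 0.25). It passed by DESeq2 (0.0103), without PMA-treated dE9 library 1 (0.00728) and with no filter on low counts (4.94e-05). For ASNS it was 2.08 ± 0.56 for iE9 minus WT and 1.34 ± 0.55 for dE9 minus WT (0.487 and 1.0). With no filter on low counts, ASNS passed for iE9 minus WT (4.49e-06), as did ATF5 (0.0451), and DDIT4 for dE9 minus WT (0.00471). Whether the difference for ASNS passed thus depended on the filter, and the cause was not tested. PPP1R15A gave -0.91 ± 0.25 for iE9 minus WT and ATF5 1.21 ± 0.36 (edgeR adjusted p = 0.492 and 0.54).

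The transcripts behind ATF5 were also described, a choice made after their values were seen, so they carry no test. ATF5-201, a coding transcript, gave 82.2 to 89.9% of ATF5 TPM in the 8 unstimulated libraries. With PMA it gave 68.0 and 78.9% in WT, 86.5, 65.8 and 76.3% in dE9, and 61.9, 62.1 and 66.2% in iE9. ATF5-203, another coding transcript, went from 3.44 and 1.80% in unstimulated WT to 23.6 and 15.9% with PMA. In dE9 its share was 3.78, 2.77 and 1.37% without PMA and 3.77, 20.5 and 16.7% with it. In iE9 it was 1.20, 4.84 and 4.76% without PMA and 15.1, 14.6 and 19.7% with it. Its PMA shares were above the unstimulated ones in WT and iE9, and PMA-treated dE9 library 1 stayed at the unstimulated level. Shares are of a gene that fell with PMA and that overlaps NUP62 on the other strand. Salmon assigns reads among transcripts that share exons by estimation.

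**Figure D4:**
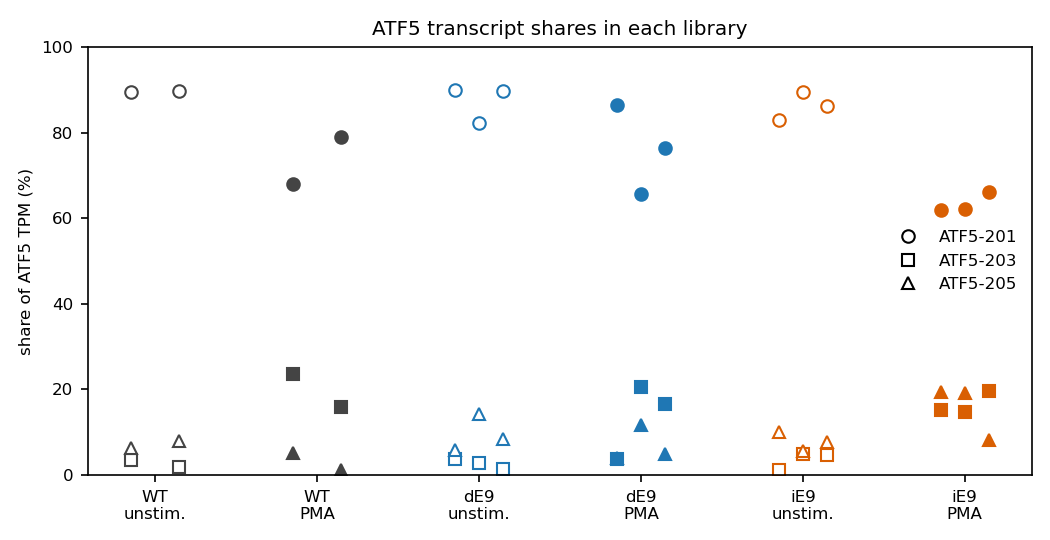
Share of ATF5 TPM in percent (y axis) from 3 coding transcripts (symbols) in each library, by line and treatment (x axis; open, unstimulated; filled, PMA). ATF5-203 is between 1.20 and 4.84% in unstimulated libraries and 14.6% or more in 7 of 8 PMA-treated ones.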

How the data were processed

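The authors deposited, for each of 16 polyadenylated RNA libraries, estimated counts and TPM per transcript from Salmon on hg38, per the file headers and the submitters' processing notes, and a table of TPM per gene. Lengths and effective lengths per transcript in the deposited files were not tested. The Salmon and DESeq2 versions, the annotation release and the strandedness are not stated by any source at hand. All 205870 transcripts matched GENCODE 29 and were summed to 58295 genes, and the sums of TPM met the deposited gene table within 1.82e-12. Summed estimated counts were rounded to whole numbers.

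Tests used edgeR 4.0.16 (quasi-likelihood, TMM scaling, R 4.3.3) in 1 model of 6 groups over 18073 genes kept by its expression filter, with Benjamini-Hochberg adjustment over all of them and a threshold of 0.05. SEs come from that fit. A fold is 2 to the power of the fitted log2 fold change. Differences between responses are contrasts of the same fit. On simulated data for PMA in WT (18073 genes), 100% of 100 genes changed 4-fold and 47% of 100 changed 2-fold were recovered, with 5 false calls. All genes were simulated with the same spread, lower than the 31.8% coefficient of variation between libraries in the real fit. Only genes of higher counts were changed. The shares recovered describe that simulation and may be too high for these data. The share of HDAC7 with exon 9 is the TPM of transcripts that hold it over that of transcripts that hold or skip it. HDAC7 transcripts that do neither, such as those that do not span the exon, were left out.

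Within a line, same-numbered libraries deviated together in dE9 (r = 0.24 to 0.30) and iE9 (0.19 to 0.44), and less so in WT (0.07). The highest r with a library of another number was -0.17 to -0.04 in dE9, -0.26 to 0.15 in iE9 and -0.07 in WT. These are deviations from group means, which are not independent, so they do not settle the pairing.

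Genes given in every library were ATF4, DDIT3, ASNS, TRIB3, WARS and up to 5 calls per direction with the largest fold change in each PMA comparison. Line comparisons took up to 3 per direction. Related lists took up to 3 calls of lowest adjusted p. Some values are not reported here. Members and lists were chosen with earlier results of these data known. Alternatives were RLE scaling, no filter, DESeq2 1.42.0, a fit on the groups compared, a replicate block and leaving out each library. A block within each line and leaving out both iE9 libraries numbered 1 were added after seeing the data.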

Additional observations from a re-analysis of the deposited data

How the results depend on the processing

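Over the 37 genes and 12 comparisons, leaving out 1 library gave 2960 values, in which 70 of 370 repeats of a call were lost and 11 calls were gained. The other planned settings gave 2220 values, with 15 of 345 lost and 44 gained. Those added after seeing the data gave 481, with 2 of 90 lost and 26 gained. No called value turned sign. With PMA, a fit on the line's own libraries lost DARS (0.0557), LARS (0.0501), MARS (0.06) and SESN2 (0.0808) in dE9 and CEBPB (0.055), DARS (0.0563) and GARS (0.0595) in iE9. RLE scaling lost SHMT2 (0.0516) and VARS (0.0597) in WT, and no filter lost MARS (0.0935), SHMT2 (0.0948) and VARS (0.294) in WT and MARS (0.0755) in dE9. With PMA, the count of the 37 genes called was 12 to 16 in WT, 18 to 22 in dE9 and 18 to 24 in iE9 without 1 library, against 21, 23 and 21, and 33 in WT on the WT libraries alone, which added ASNS, ATF3, ATF4, DARS, DDIT3, HARS, KARS, PSPH, SARS, TARS, TRIB3 and WARS. DDIT3 in dE9 ran from -0.63 to 0.14 on the log2 scale, turning sign without unstimulated library 1. TRIB3 in iE9, at 0.00, ran from -0.24 to 0.26, with -0.24, -0.15 and -0.12 without unstimulated library 1, PMA-treated library 2 or PMA-treated library 3. None of these values passed. With no filter on low counts, 3 genes were called for iE9 against dE9 and 7 for iE9 against WT without PMA, 2 for dE9 against WT without PMA, 2 for iE9 against dE9 with PMA, and 1, 2 and 1 for the differences iE9 minus dE9, iE9 minus WT and dE9 minus WT. In the same order, that setting called 3.96, 3.66, 0.396 and 5.41% of all genes between lines, and 1.44, 0.877 and 0.147% for the differences. DESeq2 called 2 for iE9 against dE9, 3 for iE9 against WT and 1 for dE9 against WT without PMA, 2 for iE9 against dE9 and 1 for iE9 against WT with PMA, and 1 for iE9 minus dE9. In the same order, DESeq2 called 4.42, 4.35, 0.127, 6.99, 3.8 and 0.706% of all genes. On the groups compared alone, iE9 against dE9 with PMA gave 0. Without 1 library the counts were 0 to 2 for iE9 against WT without PMA, 0 to 1 for iE9 against dE9 with PMA and 0 to 1 for iE9 minus dE9. Without both iE9 libraries numbered 1 the first gave 1 and the second 0. The cause was not tested.

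A replicate block shared by all lines gave 20, 23 and 23 calls with PMA in WT, dE9 and iE9, beside 23.4, 34.5 and 28.0% of all genes. A replicate block within each line, added after seeing the data, gave 30, 29 and 30. That fit called 36.5, 45.2 and 39.8% of all genes, against 22.3, 33.5 and 27.1% in the main fit. In WT, where 2 pairs do not settle the pairing, the block within the line added ATF4 (0.000651), DARS (0.0157), DDIT3 (0.02), HARS (0.0384), KARS (0.0148), PSPH (0.00549), SARS (0.0192), TARS (0.0328) and TRIB3 (0.012) by edgeR adjusted p, and the shared block dropped VARS (0.053). Beside the calls named here and in the results, neither block changed a call of the 37 genes. Over all genes, WT with PMA gave 4038 calls (22.3%), 8284 (52.7%) on the WT libraries alone and 6590 (36.5%) with the block within the line. For iE9 against dE9 the all-gene count was 311 without PMA, with 840 by DESeq2, 1319 with no filter and 161 on those groups alone. With PMA it was 471, with 1285, 1801 and 47. For dE9 against WT without PMA it was 0, with 20 by DESeq2 and 132 with no filter.

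In the simulation of the WT comparison 47% of 2-fold changes were recovered, so a change of that size without a call in WT was not detectable with certainty. ALDH1L2 lay under the filter.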
